A study of Bubalus bubalis with 6 samples.

Results

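ACSS3 and ACSL1 encode acyl-CoA synthetases, and their circRNAs and mRNAs were followed through 6 libraries of buffalo subcutaneous adipose tissue. The members were all circRNAs that the deposited table assigns to the symbol ACSS3 or ACSL1, and the transcripts named there as their hosts. The rule gave 15 of 14990 circRNAs, 13 of ACSS3 and 2 of ACSL1, and 2 of 79746 transcripts, ENSBTAT00000024880 for ACSS3 and ENSBTAT00000005684 for ACSL1. Both genes were chosen by values measured in these same libraries. ACSS3 had been seen to give one of the most abundant circRNAs, mainly in adult animals, and ACSL1 had been seen as a lipid gene with a modest mRNA difference between the ages. Their differences between young and adult libraries are therefore given as a description, with no test.

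Total RNA without rRNA was sequenced from 3 young animals of 6 months and 3 adult animals of 30 months. All were Chinese buffaloes (Bubalus bubalis, swamp type) kept under the same feeding, no treatment is stated, and each animal gave 1 library. The tissue was bulk fat, so a smaller number of cells of a type and less RNA per cell cannot be told apart in any value below. A circRNA is a closed RNA made when the end of an exon is spliced back to an upstream start, and it is counted from reads across that back-spliced junction.

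An acyl-CoA synthetase joins an acid to coenzyme A at the cost of ATP, which is the step that commits the acid to burning, elongation or storage. ACSL1 acts on long-chain fatty acids and is known as a main long-chain synthetase of adipocytes. ACSS3 belongs to the short-chain family, and in rat it is known as a mitochondrial enzyme that prefers propionate. Acetate and propionate come from fermentation in the rumen, and acetate is the main carbon source for fatty acid synthesis in ruminant fat.

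The libraries held 10745 to 17680 back-spliced reads, and 1 read was worth 1.42 to 2.59 on the authors' scaled circRNA scale. The FPKM of all transcripts summed to between 1093382 and 1237794 in young and between 657311 and 721755 in adult libraries. Which transcripts make up this gap was not tested, so values scaled to a common sum are an alternative and not a correction. Scaling each library to a common FPKM sum moved the median log2 difference over all features from 0.01 to 0.62. It also turned the calls of the test from 1542 higher and 1366 lower of 14696 features to 6047 higher and 690 lower of 14871.

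ACSS3 mRNA was present in all 6 libraries and was higher in each adult animal than in each young one. Values of a group are always given in the order of replicates 1, 2 and 3. FPKM was 51.7, 15.6 and 107 in the young libraries, against 198, 200.4 and 188 in the adult libraries. The adult libraries were close to each other, whereas the young ones spread widely, with young replicate 2 lowest. The means were 58.2 ± 46.2 (SD, n = 3) in young and 195 ± 6.74 (SD, n = 3) in adult animals. The log2 difference was 2.10 ± 0.79 (SE) on the log2(FPKM + 1) scale. It was 1.38 without young replicate 2 and 2.83 when each library was scaled to the same FPKM sum, which is 2.21 above the median of all features on that scale. Over all 14696 genes and transcripts tested, 22.3% had every adult library above every young one.

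ACSL1 mRNA was higher on average than ACSS3 mRNA but did not separate the ages. FPKM was 90.5, 64.9 and 284 in the young libraries against 546, 252 and 115 in the adult ones. The groups overlapped, since young replicate 3 exceeded adult replicates 2 and 3, and the highest and the third lowest of the 6 values were both adult. The means were 146 ± 120 (SD, n = 3) and 305 ± 220 (SD, n = 3) FPKM. The log2 difference of 1.08 ± 0.91 (SE) was 0.52 without adult replicate 1, 0.65 without young replicate 2, 1.70 without young replicate 3 and 1.64 without adult replicate 3. Scaling to that common sum gave 1.81, or 1.19 above the median of all features on that scale. In FPKM, which is per length, the ACSL1 level was above that of ACSS3 in all young libraries and in adult replicates 1 and 2, and below it in adult replicate 3.

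**Figure D1:**
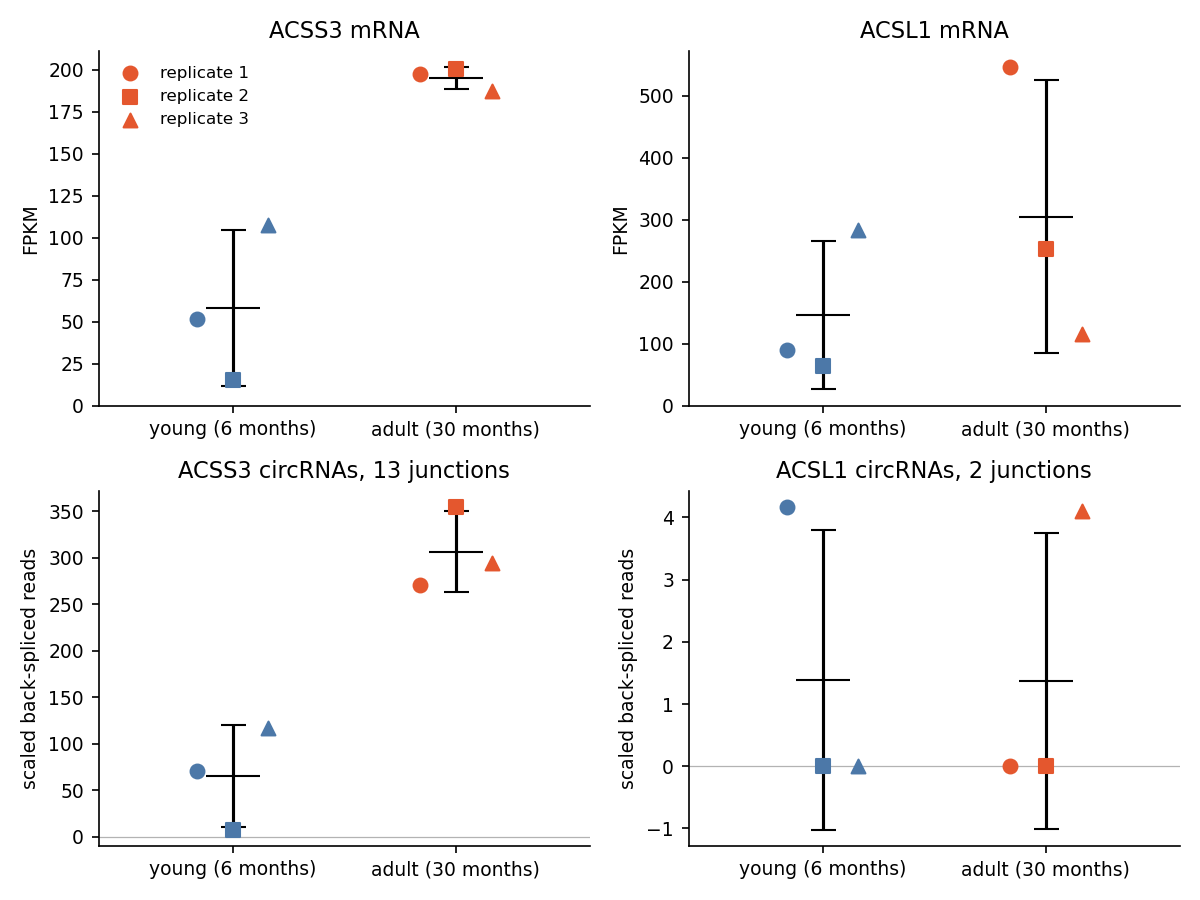
mRNA level (FPKM, upper panels) and summed circRNA level (scaled back-spliced reads, lower panels) of ACSS3 and ACSL1 in 3 young and 3 adult libraries. Points are libraries, with the symbol giving the replicate number, and bars are the mean ± SD. Adult ACSS3 libraries lie at 188 to 200.4 FPKM, above all young ones, while the ACSL1 groups overlap in both rows.

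The circRNA output of ACSS3 came almost entirely from 1 junction, 5:10860435|10879727, on chromosome 5 of the cattle build UMD3.1 that the files use. It was marked as made of exons and as already published, the only 1 of the 15 members so marked. It had back-spliced reads of 29, 3 and 79 in the young libraries against 131, 214 and 128 in the adult ones. All adult libraries lay above all young ones, and young replicate 2 was nearly without reads. These 584 reads were 91.8% of the 636 reads of ACSS3, and the share was at least 85.3% in each library.

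Relative to all back-spliced reads of a library, the leading ACSS3 junction made up 0.211%, 0.0244% and 0.447% in the young libraries. The exact 95% Clopper-Pearson intervals were 0.142% to 0.303%, 0.00504% to 0.0714% and 0.354% to 0.557%. In adult replicates 1 to 3 it made up 1.05%, 1.32% and 1.19%, with intervals of 0.877% to 1.24%, 1.15% to 1.504% and 0.995% to 1.41%. These intervals cover counting error within 1 library only, and they may be too narrow, because reads were amplified and are not independent molecules. They leave out the variation between animals, so they give no comparison of the ages. The junction ranked 3rd, 2nd and 2nd among the circRNAs of adult replicates 1 to 3, and 32nd, 756th and 6th in the young libraries.

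On the scaled circRNA scale the leading junction had 60.2 ± 52.2 (SD, n = 3) in young and 280.5 ± 38.4 (SD, n = 3) in adult animals, 4.66 times as much. Summed over all 13 junctions, ACSS3 had 70.9, 7.77 and 117 scaled reads in the young libraries against 271, 355 and 294 in the adult ones. The log2 difference of the sum was 2.86 ± 1.15 (SE), and it was 1.73 without young replicate 2, 3.61 without young replicate 3 and 3.12 at an equal total of back-spliced reads per library. Among the 2834 circRNAs read in at least 3 libraries, 6.46% had every adult library above every young one. The limma test over these circRNAs called 3 (0.106%) higher and 22 (0.776%) lower in adults at an adjusted p under 0.05.

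The other 12 ACSS3 junctions held 52 reads together, and none had more than 13. They numbered 5, 0 and 3 reads in the young libraries against 9, 20 and 15 in the adult ones. Of the 13 junctions, 4 were seen in both ages, 8 in adult libraries alone and 1 in a young library alone. With so few reads, a junction missing from an age was not detectable at this depth, since 3 reads were 0.0170% to 0.0279% of a library. The split into both ages, adult alone and young alone was not computed over all circRNAs. Whether the split of the ACSS3 junctions is unusual was therefore not tested. The number of circRNAs seen per library was 4571 to 5480 in young and 2807 to 4525 in adult libraries. The junction seen in young animals alone, 5:10860435|10903198, had 2 reads, both in young replicate 3.

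The 13 junctions used 8 start and 7 end positions over 141369 bases. The end of the leading junction, 10879727, was shared by 5 junctions with 598 reads, 94.0% of all ACSS3 reads. Its start, 10860435, was shared with 1 further junction. A group of 5 junctions at the lower end of the gene started at 10761829 or 10785242 and ended by 10805770, without overlapping the leading one. The junctions 5:10795149|10831882 and 5:10805514|10879727 also start within this stretch but end beyond it. The group was set apart after its values were seen, so it has no test. These 5 junctions had 1, 0 and 1 reads in the young libraries against 5, 12 and 15 in the adult ones. They made up 2.94%, 0% and 1.22% of the ACSS3 reads of the young libraries, the second of these out of 3 reads, against 3.57%, 5.13% and 10.5% in the adult ones. The groups did not overlap, but the adult libraries differed widely among themselves and the young shares rest on 2 reads. How often such shares separate the ages in other host genes was not computed.

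Within that lower group, 5:10785242|10795289 had 3 reads in adult replicate 1 and 10 in adult replicate 3. 5:10785242|10805770 had 1 read in young replicate 1, 5 in adult replicate 2 and 4 in adult replicate 3. 5:10761829|10805770 had 2, 2 and 1 reads in the adult libraries. These were the most read of the group, and together with the leading junction the last 2 of them were the only ACSS3 circRNAs seen in at least 3 libraries. The junctions 5:10761829|10789549 and 5:10761829|10795289 had 4 and 2 reads. Among those ending with the leading junction, 5:10831731|10879727 had 5 reads, all in adult replicate 2. 5:10841580|10879727 also had 5, of which 4 were in young replicate 1. Both 5:10805514|10879727 and 5:10863201|10879727 had 2 reads, and 5:10795149|10831882 and 5:10841580|10863264 had 1 each. Spans between the 2 ends ran from 10047 to 74213 bases for ACSS3, with 19292 for the leading junction, and the median span over 13623 exonic circRNAs was 11676 bases.

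**Figure D2:**
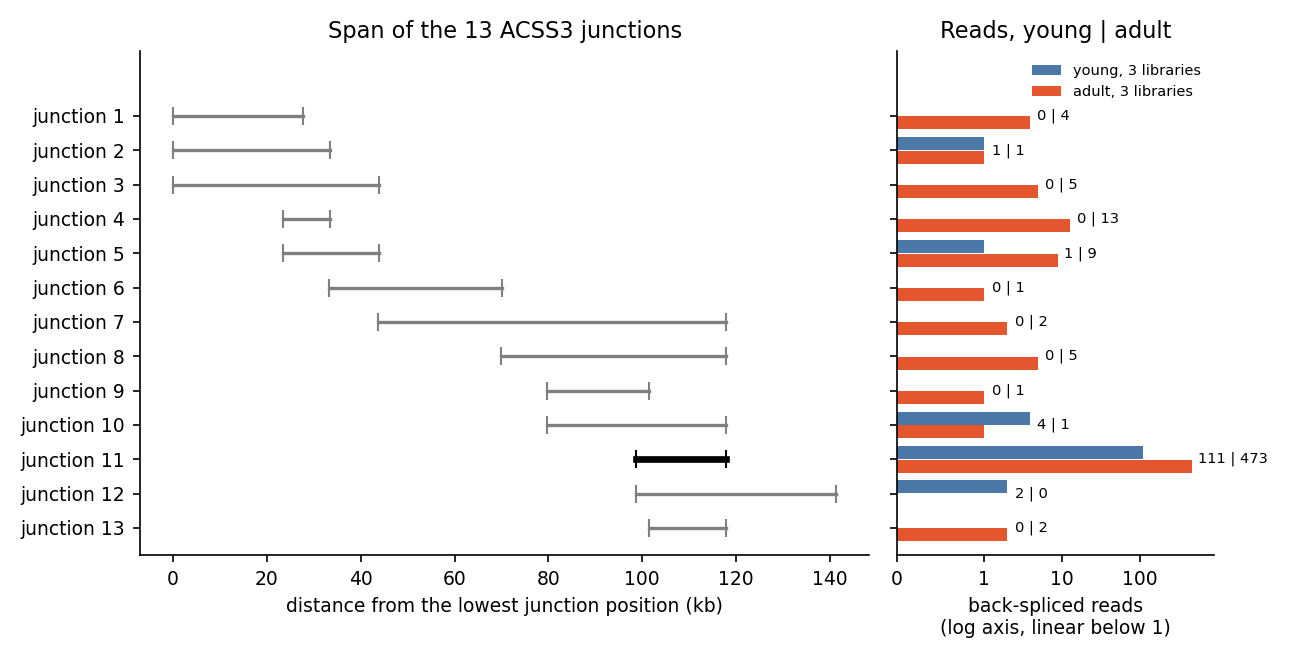
Left, the 13 ACSS3 junctions from the lowest to the highest position (distance in kb), with the leading junction in black. Right, back-spliced reads summed over the 3 young and the 3 adult libraries on a log axis that is linear below 1, with both numbers printed. The leading junction holds 111 young and 473 adult reads, and no other junction exceeds 13.

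ACSL1 gave hardly any circRNA. The junction 27:14225434|14230320 had 2 reads in young replicate 1, and 27:14234991|14239444 had 2 reads in adult replicate 3. The other 4 libraries had none. The exact Clopper-Pearson upper limits of the ACSL1 share in these libraries were 0.0209% to 0.0300% of back-spliced reads. The 4 reads of ACSL1, with an exact Poisson interval of 1.09 to 10.2 for counting error, stand against 636 of ACSS3. Both ACSL1 junctions lie on chromosome 27, span 4886 and 4453 bases, and share no end. The mean scaled level was 1.39 ± 2.41 (SD, n = 3) in young and 1.37 ± 2.37 (SD, n = 3) in adult animals, so no difference between the ages could be read from them.

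Set against their own mRNA, the 2 genes lay far apart. Over the 3885 named host genes with a mean FPKM of at least 0.5, ACSL1 ranked 46th by mean FPKM but 2259th by back-spliced reads. ACSS3 ranked 118th by mean FPKM and 3rd by reads. Scaled circRNA reads per FPKM were 1.47 for ACSS3, rank 292, and 0.00612 for ACSL1, rank 3793, with a median of 0.161 over these hosts. The low number of ACSL1 was not unusual for an abundant mRNA, as 55 of the 153 hosts with a mean FPKM of at least 100 had 4 reads or fewer, and their median was 7. Names were taken from circRNA hosts, so a gene without any circRNA is not among the genes compared.

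**Figure D3:**
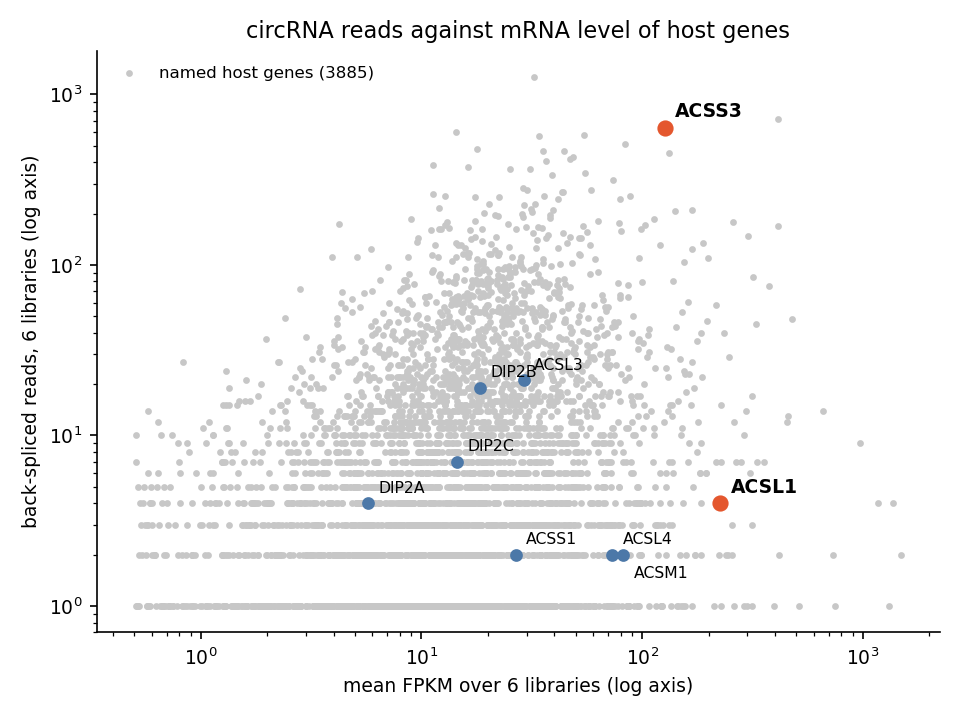
Back-spliced reads summed over 6 libraries against mean FPKM of 3885 named host genes, both on log axes. ACSS3 and ACSL1 are in red and the other acyl-CoA synthetase genes in blue. ACSS3 has 636 reads at 127 FPKM, and ACSL1 has 4 reads at 225 FPKM.

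Whether the leading ACSS3 circRNA kept its ratio to the mRNA depended on the scale of the mRNA. Scaled reads of that junction per FPKM were 1.17, 0.498 and 1.05 in the young libraries against 1.28, 1.62 and 1.40 in the adult ones. The groups did not overlap, though the gap between young replicate 1 and adult replicate 1 was small and the value of young replicate 2 rests on 3 reads. Of 2667 circRNAs with a named host, 5.70% had every adult ratio above every young one. When all 13 junctions were summed, the ratios were 1.37, 0.498 and 1.08 in young libraries against 1.37, 1.77 and 1.57 in adult ones, and the groups then touched. On the scale with a common FPKM sum, an alternative chosen after the data were seen, the ratios of the leading junction were 1.28, 0.567 and 1.29 in young against 0.905, 1.17 and 0.922 in adult libraries. The groups then overlapped, and young replicates 1 and 3 lay above all adult libraries. On that scale 2.85% of the 2667 circRNAs had every adult ratio above every young one. With that scaling the log2 difference of the mRNA was 2.83, as was that of the leading circRNA on its own scale.

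The other acyl-CoA synthetases that could be named gave no call between the ages. A gene counts as measured, here and below, only if a circRNA host gave its name. Listed genes without a circRNA were not looked up, and their mRNA may still be present. Of 27 genes listed for the family, 9 were measured, and none of the 7 besides ACSS3 and ACSL1 passed the limma test at an adjusted p of 0.05. The background of that test was 10.5% of 14696 genes and transcripts called higher and 9.30% called lower in adults. ACSL4, which prefers arachidonate, had 37.9, 103 and 42.1 FPKM in young libraries against 100.2, 96.9 and 59.0 in adult ones. ACSL3, a long-chain synthetase of the endoplasmic reticulum and lipid droplets, ranged from 11.03 to 59.1 FPKM in young and from 21.0 to 32.6 in adult libraries. ACSS1, the mitochondrial acetate enzyme, had 16.8, 8.13 and 37.4 FPKM in young libraries against 35.2, 30.5 and 32.3 in adult ones. In all these genes the groups overlapped.

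The log2 fold changes of ACSL3, ACSL4, ACSS1 and the medium-chain synthetase ACSM1 were 0.17 ± 0.55, 0.59 ± 0.42, 0.87 ± 0.48 and 0.27 ± 0.46 (SE), with limma adjusted p of 0.846, 0.345, 0.235 and 0.694. Those of DIP2A, DIP2B and DIP2C, which share the AMP-binding fold of the family, were 0.38 ± 0.25, 0.40 ± 0.27 and 0.51 ± 0.24 (SE), with limma adjusted p of 0.314, 0.332 and 0.171. Leaving out young replicate 1 turned ACSL3 to a log2 of -0.37, and leaving out young replicate 2 turned ACSM1 to -0.18. With FPKM scaled to a common sum, ACSL4, ACSS1 and all 3 DIP2 genes passed the threshold as higher, with log2 fold changes of 1.02 to 1.58 where the median of all features was 0.62. That setting called 6047 of all 14871 features higher, which applies to every pass on that scale here and below. ACSS1 also passed without young replicate 3, at a log2 of 1.40. The family gave few circRNA reads outside ACSS3. ACSL3 had 21 reads in 8 junctions, DIP2B 19 in 6, DIP2C 7 in 3 and DIP2A 4 in 3, while ACSL4, ACSS1 and ACSM1 had 2 reads each.

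Propionyl-CoA, the product of propionate activation, is carboxylated and rearranged to succinyl-CoA, and the same steps take up the carbon of branched-chain amino acids. Of 27 genes listed for these routes, 9 were measured, 4 were higher in adults and none was lower, with a median log2 fold change of 1.42 against 0.01 over all features. Over all features tested, 10.5% were called higher and 9.30% lower. MUT, the methylmalonyl-CoA mutase, had 28.5, 19.4 and 44.4 FPKM in young libraries against 115, 94.9 and 87.0 in adult ones, a log2 fold change of 1.72 ± 0.31 (SE, limma adjusted p = 0.0116). HIBADH, an enzyme of valine breakdown, rose from 32.1 to 56.1 FPKM in young to 106 to 117 in adult libraries (log2 1.42 ± 0.24 SE, limma adjusted p = 0.0093). DBT, a part of the branched-chain keto acid dehydrogenase, and ECHS1, the short-chain enoyl-CoA hydratase, rose by log2 values of 1.12 ± 0.32 and 2.20 ± 0.61 (SE), with limma adjusted p of 0.049 and 0.0447.

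PCCA and PCCB, both chains of propionyl-CoA carboxylase, and BCAT1, a branched-chain aminotransferase of the cytosol, are added here after their values were seen. PCCA had 17.8, 8.47 and 30.2 FPKM in young libraries against 35.3, 48.3 and 40.0 in adult ones, and PCCB had 40.8, 5.18 and 51.6 against 72.5, 71.7 and 64.1. In both, the adult libraries lay above the young ones and young replicate 2 was lowest, as for ACSS3. They did not pass the test, with log2 fold changes of 1.24 ± 0.42 and 1.56 ± 0.75 (SE) and limma adjusted p of 0.077 and 0.183. PCCA passed without young replicate 3, and with FPKM scaled to a common sum both passed, with limma adjusted p of 0.00702 and 0.0409. On that scale 6047 of 14871 features were called higher. BCAT1 went the other way at a low level, with 0.876, 1.596 and 0.634 FPKM in young libraries against 0.198, 0.273 and 0.337 in adult ones. Its groups did not overlap, and it did not pass either (log2 -0.66 ± 0.29 SE, limma adjusted p = 0.150). The share of all features with every adult library below every young one was not computed. The call of HIBADH was lost without adult replicate 2 (limma adjusted p = 0.0521). The call of MUT was lost without young replicate 1, adult replicate 1 or adult replicate 2, with limma adjusted p of up to 0.0553. The calls of DBT and ECHS1 were lost without young replicate 1 and without any 1 of the adult replicates, with limma adjusted p of up to 0.156, and that of DBT also without young replicate 2.

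Many of the genes that build fatty acids and store them as fat were higher in adults. In fatty acid synthesis 4 of the 6 measured genes rose and none fell, with a median log2 fold change of 2.38. The background was 10.5% of all features called higher and 9.30% called lower. ELOVL6, which elongates palmitate, had 43.7, 14.8 and 108 FPKM in young libraries against 2295, 1137 and 788 in adult ones (log2 4.90 ± 0.71 SE, limma adjusted p = 0.005). ACACA, which makes malonyl-CoA, rose from 24.9 to 52.7 FPKM in young to 245 to 441 in adult libraries (log2 3.097 ± 0.34 SE, limma adjusted p = 0.002). ELOVL5, an elongase of polyunsaturated fatty acids, and HSD17B12, the ketoacyl-CoA reductase of elongation, rose by log2 values of 2.27 ± 0.32 and 2.48 ± 0.52 (SE), with limma adjusted p of 0.005 and 0.019. Of these 4, ACACA, ELOVL5 and ELOVL6 remained called with each library left out.

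In triglyceride assembly and storage 5 of the 10 tested genes rose and none fell, with a median log2 fold change of 1.22. Among all features 10.5% were called higher and 9.30% lower. LPL, which releases fatty acids from lipoproteins for uptake, had 184, 57.5 and 331 FPKM in young libraries against 3067, 1981 and 1395 in adult ones (log2 3.74 ± 0.63 SE, limma adjusted p = 0.009). GPAM and GPAT3, which start glycerolipid assembly, and DGAT2, which adds the last acyl group, rose by log2 values of 3.76 ± 1.05, 1.76 ± 0.49 and 4.16 ± 1.03 (SE), with limma adjusted p of 0.046, 0.047 and 0.032. LPL stayed called with each library left out. The calls of HSD17B12, GPAM, GPAT3 and DGAT2 were lost without young replicate 1 and without any 1 of the adult replicates, with limma adjusted p of up to 0.144. Those of GPAM and GPAT3 were lost without young replicate 2 as well. All 4 were also lost without the filter on low values, with limma adjusted p of 0.0538 for HSD17B12, 0.111 for GPAM, 0.105 for GPAT3 and 0.085 for DGAT2. The 1 gene of lipolysis that was measured, PDE3B, had a log2 fold change of 1.19 ± 0.95 (SE, limma adjusted p = 0.396), and -0.02 without young replicate 2.

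Fatty acid oxidation, the other fate of the acyl-CoA made by ACSL1, had 11 of 19 measured genes higher in adults and none lower, with a median log2 fold change of 1.34. All features together had 10.5% called higher and 9.30% called lower. ECHS1 is counted here too. CPT1A, which makes the acylcarnitine that enters mitochondria and is added here after its values were seen, had 19.2, 33.6 and 22.9 FPKM in young libraries against 13.9, 14.3 and 18.9 in adult ones. It was lower in each adult library than in each young one, a pattern whose share over all features was not computed. CPT1A did not pass (log2 -0.63 ± 0.26 SE, limma adjusted p = 0.125), and it turned to 0.07 with FPKM scaled to a common sum. SLC25A20, the carrier of acylcarnitine into mitochondria, had 15.6, 11.9 and 15.6 FPKM in young libraries against 52.7, 67.0 and 45.5 in adult ones (log2 1.86 ± 0.22 SE, limma adjusted p = 0.002), and kept its call with each library left out. DECR1, needed to burn unsaturated fatty acids, and SCP2, a peroxisomal thiolase and lipid carrier, rose by log2 values of 2.09 ± 0.50 and 1.77 ± 0.35 (SE), with limma adjusted p of 0.030 and 0.015. Both lost their calls without any 1 of the adult replicates, with limma adjusted p of up to 0.108, and DECR1 also without young replicate 1.

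Genes that act on acyl-CoA outside these routes gave 1 call in each of 2 lists, against a background of 10.5% of all features called higher and 9.30% called lower. Of 5 measured thioesterases and binding proteins, ACBD6, a binding protein, was lower, from 4.32 to 8.29 FPKM in young to 1.98 to 2.80 in adult libraries (log2 -1.06 ± 0.26 SE, limma adjusted p = 0.033). That call was lost with FPKM scaled to a common sum (log2 -0.49) and without any 1 library other than young replicate 3. ACBD3, ACBD5 and ACOT9 were at log2 values of -0.57, 0.76 and 0.36, short of the threshold, which ACBD5 passed without young replicate 3. With FPKM scaled to a common sum, ACBD5 and ACOT9 passed at log2 values of 1.48 and 1.05 (limma adjusted p of 0.00484 and 0.0170), and ACBD3 turned to 0.14. Of 6 genes of acetate and ketone body use, SLC16A1, a carrier of lactate, acetate and ketone bodies, was higher (log2 1.53 ± 0.38 SE, limma adjusted p = 0.032). The call of SLC16A1 was lost without any 1 library other than young replicate 2. OXCT1, the ketone body transferase, and ACAT1, the acetoacetyl-CoA thiolase, were at log2 values of 1.33 ± 0.42 and 0.02 ± 0.28 (SE), short of the threshold, with limma adjusted p of 0.064 and 0.972. OXCT1 passed without young replicate 2 and without young replicate 3. With FPKM scaled to a common sum both passed, OXCT1 at a log2 of 2.07 and ACAT1 at 0.75, with limma adjusted p of 0.00605 and 0.0429. That scale called 6047 of 14871 features higher.

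Counted once each, 60 genes of these lists were tested besides ACSS3 and ACSL1. Of these, 24 were higher and 1 was lower, with a median log2 fold change of 1.14. Over all features 10.5% were called higher and 9.30% lower, and no background of circRNA hosts alone was computed. Only 6 of the 25 calls stayed past the threshold whichever library was left out. Without adult replicate 1 or adult replicate 2 the number fell to 7, and without young replicate 1 or adult replicate 3 to 10. Without the filter on low values it was 13, and the calls of DBT, ECHS1, DECR1, ACBD6 and SLC16A1 were then lost too, with limma adjusted p of 0.0711 to 0.104.

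**Figure D4:**
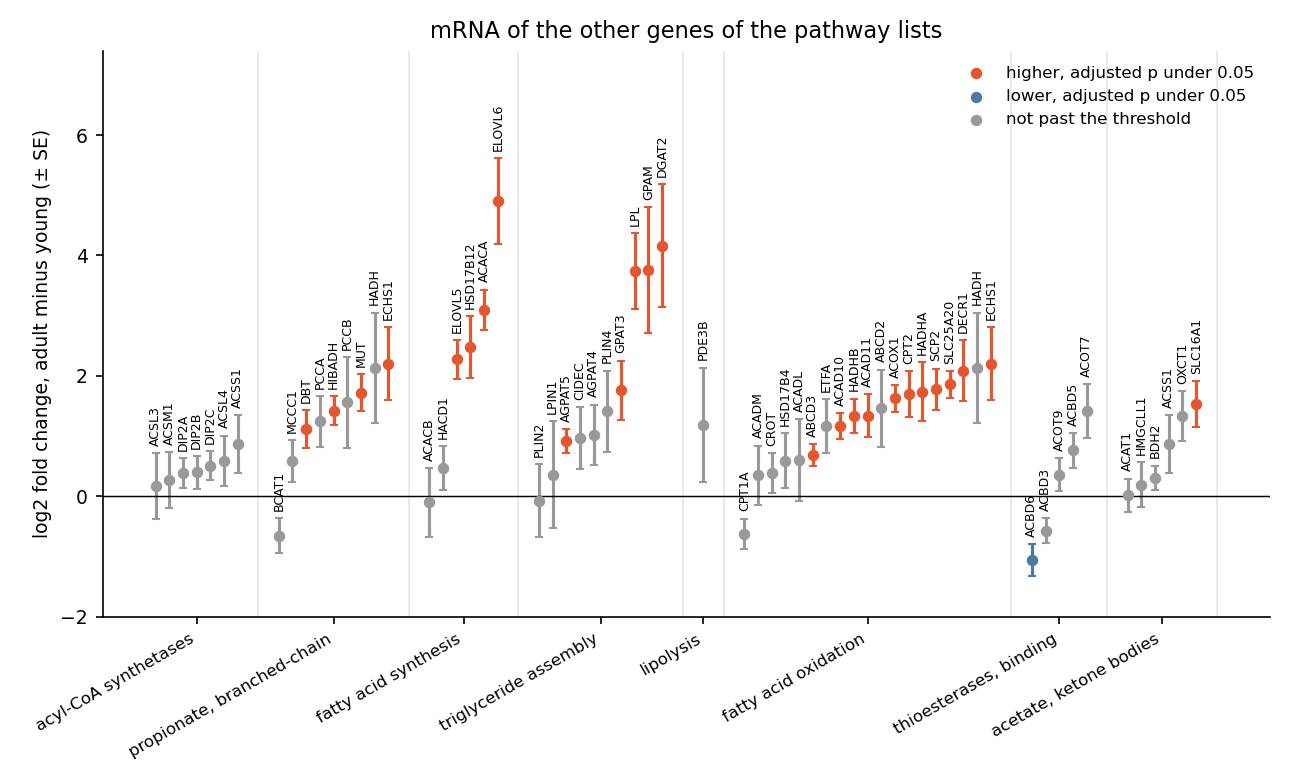
Log2 fold change of mRNA, adult minus young, with its SE from limma, for the tested genes of the 8 pathway lists, ACSS3 and ACSL1 left out. Red marks genes called higher, blue genes called lower and grey genes that did not pass the adjusted p of 0.05. None of the 7 other synthetases is coloured, whereas 11 of 19 genes of fatty acid oxidation are red, against 10.5% of all features called higher.

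Adipocyte markers were present in all 6 libraries and followed the order of both genes among the young ones. Of 12 listed markers, only LPL, CIDEC and PPARG could be named through a circRNA. Their summed level was 301 to 1422 FPKM in young and 2404 to 4209 in adult libraries. CIDEC, a protein of the lipid droplet surface, had 439, 191 and 858 FPKM in young libraries against 911, 829 and 719 in adult ones. PPARG, the regulator of fat cell formation, had 104, 52.5 and 233 FPKM in young libraries against 231, 279 and 289 in adult ones. The groups overlapped for both, and only LPL passed the test. PPARG passed when young replicate 3 was left out. With FPKM scaled to a common sum CIDEC and PPARG both passed, at log2 values of 1.70 and 2.01 (limma adjusted p of 0.0262 and 0.0130), as did 6047 of 14871 features as higher. Young replicate 2, lowest for ACSS3 mRNA, ACSS3 circRNA and ACSL1 mRNA, was lowest for all 3 markers, and young replicate 3 was the highest young library for all of them. The part of fat cell content in the ACSS3 and ACSL1 values was not tested.

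Markers of other cells differed between the ages as well. Of the 4 measured stromal markers, THY1 fell from 179 to 253 FPKM in young to 53.6 to 90.7 in adult libraries (log2 -1.63 ± 0.26 SE, limma adjusted p = 0.008). COL3A1, the most abundant one, had a log2 fold change of -0.26 that turned to 0.48 with FPKM scaled to a common sum. The summed stromal level overlapped, at 965 to 2052 FPKM in young and 866 to 1374 in adult libraries. Of the 7 measured endothelial markers VWF and PTPRB rose (log2 1.70 ± 0.37 and 1.25 ± 0.30 SE, limma adjusted p of 0.021 and 0.031), PECAM1 was at 0.33 ± 0.25 (SE), or 1.06 and past the threshold with FPKM scaled to a common sum, and the sum was 171 to 371 against 415 to 465 FPKM. Of 3 macrophage markers CD163 fell from 53.1 to 97.2 FPKM in young to 12.01 to 20.3 in adult libraries (log2 -2.24 ± 0.30 SE, limma adjusted p = 0.004), and MRC1 had -0.62, which turned to 0.10 with FPKM scaled to a common sum. The macrophage sum was 177 to 201 in young and 60.6 to 97.2 FPKM in adult libraries.

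Of 3 smooth muscle markers MYH11 and MYLK fell by log2 values of 2.22 and 0.94 (limma adjusted p of 0.015 and 0.040), and their list summed to 83.4 to 190 FPKM in young and 37.7 to 56.8 in adult libraries. NOTCH3, a receptor of pericytes added here after its values were seen, went the other way, with 6.00, 4.57 and 3.37 FPKM in young libraries against 8.14, 6.81 and 7.79 in adult ones. Its groups did not overlap, but it did not pass (log2 0.63 ± 0.23 SE, limma adjusted p = 0.0994) other than with FPKM scaled to a common sum (1.27, limma adjusted p = 0.00676). There 6047 of 14871 features were called higher. The 1 lymphocyte marker measured, PTPRC, had 4.28 to 28.7 FPKM in young and 2.43 to 3.54 in adult libraries and did not pass. Skeletal muscle markers NEB and RYR1 summed to at most 1.51 FPKM in any library, and no liver marker could be named through a circRNA. The calls of VWF, PTPRB, MYH11 and MYLK were each lost without at least 2 single libraries, among them adult replicate 2 for all 4, with limma adjusted p of up to 0.151, and that of MYLK also with FPKM scaled to a common sum. Those of VWF, PTPRB and MYLK were lost without the filter on low values as well, with limma adjusted p of 0.0520 to 0.0657. The part of these shifts in the ACSS3 and ACSL1 values was not tested.

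**Figure D5:**
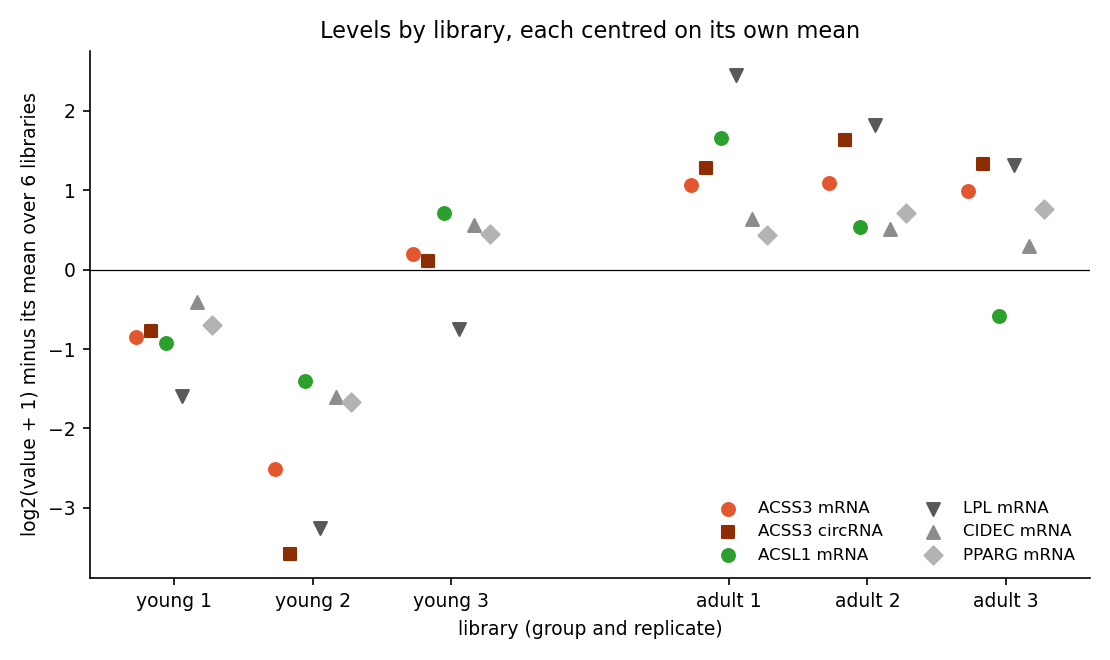
Log2(value + 1) of ACSS3 mRNA, its leading circRNA, ACSL1 mRNA and the adipocyte markers LPL, CIDEC and PPARG in each of 6 libraries, each centred on its own mean. mRNA is in FPKM and circRNA in scaled back-spliced reads. Young replicate 2 is lowest for all 6 features, and ACSL1 mRNA alone falls below its mean in an adult library, replicate 3.

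The likeness of 2 profiles was measured as the root mean square difference of centred log2 values over the 6 libraries, a description without a test. ACSS3 mRNA and its leading circRNA differed by 0.52, and ACSS3 and ACSL1 mRNA by 0.88. Out of 3883 named genes, the 3 nearest to ACSS3 mRNA were DECR1 at 0.24, BCHE, the butyrylcholinesterase, at 0.25, and PHYHD1 at 0.28. BCHE had 19.96, 6.98 and 35.9 FPKM in young libraries against 100.2, 71.6 and 60.0 in adult ones. Nearest to ACSL1 mRNA were PRICKLE2, a protein of planar cell polarity, at 0.28, CDC25A, a phosphatase of the cell cycle, at 0.37, and TMCC1, a protein of the endoplasmic reticulum, at 0.38. These had their highest level in adult replicate 1 and their second highest in young replicate 3, as ACSL1 did, with the exception of CDC25A, whose second highest was adult replicate 2. Nearest to the leading ACSS3 circRNA, out of 2831 circRNAs, were 2:72283596|72308351 of EPB41L5 at 0.28, 5:83908224|83923312 of ITPR2 at 0.30 and 10:74116625|74123337 of HIF1A at 0.48. All 3 had no read in young replicate 2 and their 3 highest levels in the adult libraries.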

How the data were processed

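Subcutaneous adipose RNA of 3 young and 3 adult buffaloes was used, 1 library per animal, and groups were taken from the sample titles. For circRNAs the authors used Trim Galore, STAR alignment on the cattle genome UMD3.1 and CIRCexplorer2 calls. What they deposited is log2(x + 1), where x is back-spliced reads scaled per library, and every x was a whole multiple of 1 read (relative tolerance 1e-06), so that reads could be recovered. The deposited mRNA and lncRNA values are log2(FPKM + 1), with the scale taken from the values. Per the labels, TopHat2 2.0.14 and Cufflinks were used, without a stated role. Whether a junction start counts from 0 or 1 is not given in the sources used here. Buffalo reads were placed on cattle sequence, and the loss this causes at single junctions was not measured. The mRNA table holds no read counts, so no counting error is given for FPKM.

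mRNA was summed per gene over named Ensembl transcripts (3986 genes, named from circRNA hosts), and the 58053 assembled transcripts were left out. Features with a mean FPKM of at least 0.5, or circRNAs with a read in at least 3 libraries, entered the test by limma 3.58.1 (R 4.3.3, moderated with a trend, pseudocount 1, Benjamini-Hochberg, adjusted p under 0.05), adult minus young. The steps were tested on simulated data. Differences of ACSS3 and ACSL1 were taken from group means of log2 values, with the SE from both SDs. Intervals are exact, at 95%, and 3 reads were taken as the floor for ACSS3 junctions that were not seen. Figures and intervals were made with Python 3 tools.

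The members and gene lists were chosen with earlier results of these data known. All measured synthetases were named, and of each other list up to 4 genes, those past the threshold with the largest change and then the most abundant. Of each marker list up to 3 called genes and the most abundant one were named, and CIDEC, PPARG, PCCA, PCCB, BCAT1, CPT1A and NOTCH3 were added after their values were seen. Likeness was not computed for the ACSL1 circRNAs, each seen in 1 library. The lncRNA table has no coordinates, so lncRNAs were matched by the target transcript it names. Alternatives changed the pseudocount, the filter, the scaling, the transcript sum and the variance model, took the replicate number as a block, and left out each library in turn over the features tested with all 6. Same-numbered libraries come from different animals, and their deviations correlated at -0.13 to 0.04, so the numbers do not pair them. The authors' lists of DE features and their p-values and FDR were not used.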

Additional observations from a re-analysis of the deposited data

How the results depend on the processing

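The pseudocount and the way transcripts were combined changed no call of the 47 named genes. The 2908 mRNA calls became 6737 with FPKM scaled to a common sum, where 6047 of 14871 features were called higher. They became 1464 with the replicate block and 920 to 3021 with 1 library left out. The 25 pathway calls became 13 without a filter, 47 with FPKM scaled to a common sum, 13 with the replicate block and 7 to 28 with 1 library left out. The 25 circRNA calls became 3 at a pseudocount of 0.5, 52 without a filter, 11 at equal totals, 134 with the replicate block and 261 with limma voom on recovered reads. Leaving out 1 library gave 0 to 15 circRNA calls by limma, with 527 to 599 at an unadjusted p under 0.05. Without a filter and with the replicate block, limma's prior degrees of freedom were infinite or 14225, so those circRNA calls rest on the trend of the spread.

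The ACSS3 and ACSL1 differences kept within 1 SD of their values, with the SD pooled from both groups. That SD was 0.97 for ACSS3 mRNA, 1.41 for its circRNAs, 1.11 for ACSL1 mRNA and 1.36 for its circRNAs. Both ACSL1 differences were smaller than their SD, so even their loss would have stayed within it. With 1 library left out the differences ran from 1.38 to 2.73 for ACSS3 mRNA and from 1.73 to 3.61 for its circRNAs. They ran from 0.52 to 1.70 for ACSL1 mRNA and from -0.79 to 0.78 for its circRNAs, whose 4 reads give no direction. The adult minus young difference of the leading ACSS3 junction per FPKM, 0.530, ran from 0.327 to 0.664 with 1 library left out, was 0.731 at equal totals of back-spliced reads and turned to -0.0486 with FPKM scaled to a common sum, alternatives chosen after the data were seen. Among named genes, FPKM scaled to a common sum turned ACBD3 to 0.14, CPT1A to 0.0722, COL3A1 to 0.48 and MRC1 to 0.10. With the replicate block, ACBD6, DBT, ECHS1, GPAM, GPAT3, MYLK, PTPRB and SLC16A1 lost their calls (limma adjusted p of 0.0576 to 0.1002). With 1 library left out, ACAT1 ran from -0.12 to 0.29, ACSL3 from -0.37 to 0.79, ACSM1 from -0.18 to 0.76 and PDE3B from -0.020 to 2.06 on the log2 scale. The depth limits the 12 minor ACSS3 junctions and ACSL1, and the causes of these changes were not tested.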

Other observations

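The lncRNA table names 1 transcript with a member as its target, TCONS_00503886, an intronic lncRNA of 1449 bases set at ACSL1, and it names none for ACSS3. Its level was 3.50, 3.70 and 3.04 FPKM in the young libraries against 1.08, 8.19 and 3.81 in the adult ones. The adult values enclosed the young ones. It was lowest in adult replicate 1, where ACSL1 mRNA was highest. Its highest level was in adult replicate 2, whereas ACSL1 mRNA was lowest in young replicate 2. A relation between them was not tested.

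The named circRNA hosts next to the members on UMD3.1 were OTOGL and TMTC2 for ACSS3 and CENPU and SNX25 for ACSL1. Between the nearest junctions, OTOGL lay 849489 and TMTC2 1597219 bases from ACSS3, and CENPU lay 18627 and SNX25 378811 bases from ACSL1. TMTC2 had 18.0, 6.29 and 26.01 FPKM in young libraries against 72.0, 29.5 and 45.9 in adult ones, with young replicate 2 lowest. OTOGL stayed under 0.46 FPKM in all 6 libraries. CENPU had 8.33, 10.5 and 11.9 FPKM in young libraries against 3.08, 6.11 and 8.27 in adult ones, so its adult libraries were lower. SNX25 ranged from 6.25 to 9.40 FPKM in young and from 3.83 to 11.1 in adult libraries.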
